A study of Rattus norvegicus with 42 samples.

Results

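The vehicle animals of this study give a baseline of gene expression in the hippocampus of the rat pup at postnatal day 10 (P10), an age at which the tissue is still building its circuits. The description covers 13 of the 42 sequenced hippocampal samples, those coded CV_5 to CV_10 (animals 1 to 6) and C_12 to C_18 (animals 8 to 14). Vehicle animal 7, coded C_11, was left out. The study excluded that sample as well, because its average coverage lay well above, and its genomic coverage well below, those of the other samples. All vehicle pups (VEH) were Sprague Dawley rats labelled male, received saline intraperitoneally on P7 and gave tissue 72 h later, with 1 pup taken per litter for each treatment. Pups given phenobarbital (PB, 75 mg/kg, coded CP or P) or levetiracetam (LEV, 200 mg/kg, coded CL or L) on the same schedule, 14 in each group, were used only to ask whether differences between code forms recurred, and neither drug was compared with vehicle. The labels do not say what the 2 code forms stand for. Animals came in separate orders and tissue was collected across the working day, and which animal belonged to which order or hour is not given in the sources used here.

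At P10 the rat hippocampus holds pyramidal neurons and interneurons that are already in place, granule neurons that are still being born in the dentate gyrus, astrocytes that are maturing, and oligodendrocytes that are only beginning to form myelin. Developing neurons are rich in tubulins and in microtubule-associated proteins, which build axons and dendrites. The choroid plexus, the meninges and the blood lie against the tissue or within it and carry RNA of their own, so that their marker genes show how much neighbouring material a dissection held. In a bulk sample, fewer cells of a type and less RNA per cell cannot be told apart.

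Levels are given in CPM, the reads assigned to a gene symbol scaled so that all genes of an animal sum to 1000000. A CPM value is a share of the sample and is not corrected for transcript length. The 13 animals had 9499492 to 14488134 assigned reads, with a median of 11712468, so that a gene at 1 CPM rested on about 11.7 reads per animal. No 2 of the 13 columns held the same values. Each sample came from 1 pup, so animals are the replicates. SDs hold the spread between animals together with counting error, and p-values test differences between groups of animals against that spread.

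One animal went against the male label, and this bears on the results that follow. Eif2s3y, a translation factor gene on the Y chromosome, was at 0.0728 CPM in animal 1 and at 64.7 CPM or more in each of the other 12 animals. Ddx3, which has the same pattern in these data, was at 0 in animal 1 and at 46 CPM or more elsewhere. LOC100911498, whose transcript RefSeq lists as Xist, the long RNA that coats the inactive X chromosome in females, was at 1530 CPM in animal 1 and at no more than 0.355 CPM in any other animal. Eif2s3, the X-linked partner of Eif2s3y, was at 294 CPM in animal 1 against 157 to 192 CPM in the rest. The library labelled animal 1 was kept, and the counts below are also given without it.

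The vehicle hippocampus expressed a wide range of genes at moderate levels. Of 14304 gene symbols in the table, 11885 had a mean of at least 1 CPM, 9005 of at least 10 CPM, 2299 of at least 100 CPM and 94 of at least 1000 CPM. In every one of the 13 animals 11261 genes reached 1 CPM, and 20 genes had no read in any. The 10 highest genes held 6.67% of the counts, the 100 highest 19.9% and the 1000 highest 53.8%. It took 825 genes to reach 50% of the counts and 5116 to reach 90%. Within single animals the 100 highest genes held from 18.1% to 23.8%. Without animal 1, 11885 genes again had a mean of at least 1 CPM.

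**Figure D1:**
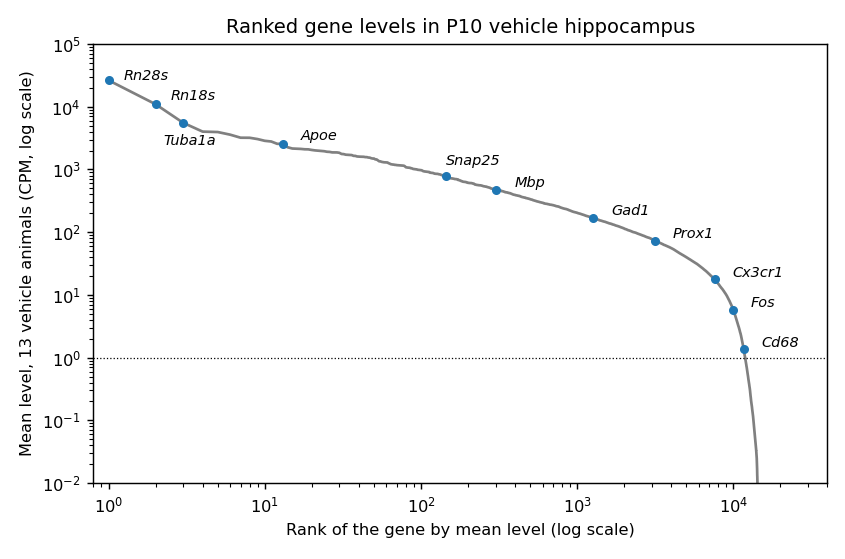
Mean level of each gene over the 13 vehicle animals (CPM, log scale) against its rank (log scale), with 11 genes named and a dotted line at 1 CPM. Rn28s and Rn18s lie at the top, Tuba1a is the third gene, and 11885 genes lie at or above the line.

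Ribosomal RNA and the cytoskeleton led the ranking. The 28S ribosomal RNA gene Rn28s was the highest, with a mean of 26360 ± 23700 CPM (SD, n = 13), and the 18S gene Rn18s was second, with 10950 ± 1126 CPM. That order rests on the CV-coded animals, in which Rn28s had a mean of 45800 CPM, since in C-coded animals its mean was 9690 CPM, under the 10800 CPM of Rn18s. Among the other 18 of the 20 highest genes, 5 encode tubulins, namely Tuba1a (5549 ± 454 CPM), Tubb2b (3206 ± 311 CPM), Tubb2a (2860 ± 106 CPM), Tuba1b (2789 ± 139 CPM) and Tubb5 (2259 ± 182 CPM). The 20 tubulin genes of the table together held 2.04% of the counts, as a share of the library more than the 1.33% held by 80 genes for ribosomal proteins. Actin followed with Actg1 at 4010 ± 198 CPM and Actb at 2044 ± 104 CPM. The microtubule-associated protein gene Map1b stood at 3948 ± 296 CPM and Stmn2, a tubulin-binding protein of growing axons, at 2097 ± 153 CPM. Near-identical tubulin copies share reads, and the expectation-maximization counting of the authors divides such reads between them, so the split among tubulins is uncertain.

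Other genes of the leading 20 serve ion gradients, protein folding, lipid synthesis and secretion. Atp1b1, a subunit of the sodium pump, stood at 2090 ± 76.9 CPM. The chaperone genes Hspa8 and Hsp90ab1 stood at 3048 ± 181 and 2141 ± 152 CPM. Scd2, a fatty acid desaturase, was at 3585 ± 253 CPM. Cpe, a peptide-processing enzyme of secretory granules, was at 2563 ± 129 CPM, and Apoe, the lipid carrier made largely by astrocytes, at 2554 ± 272 CPM. Zwint (2156 ± 114 CPM) and Ndrg4 (2125 ± 85.4 CPM) were also among the 20.

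The markers of hippocampus were present. Nrgn, a calmodulin-binding protein of principal neurons, ranged from 1239 to 2380 CPM with a median of 1651 CPM. Slc17a7, the vesicular glutamate transporter VGLUT1, ranged from 1051 to 1361 CPM with a median of 1223 CPM. Prox1, the transcription factor of dentate granule neurons, ranged from 43.8 to 103 CPM with a median of 72.2 CPM, and Wfs1, a marker of CA1 pyramidal neurons, from 50.1 to 98.7 CPM with a median of 77.7 CPM. Of the 12 excitatory and subfield genes 11 had a mean of at least 1 CPM, and Spink8, at 0.157 CPM, did not.

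Lists of marker genes were summed per animal. The 11 immature neuron genes found in the table summed to a median of 12700 CPM, largely from Tuba1a and Tubb2b. Among the more restricted members Dcx, a microtubule protein of migrating neurons, had a median of 484 CPM, and Neurod1 one of 92.6 CPM. The 12 pan-neuronal genes had a median sum of 10400 CPM and the 12 astrocyte genes 10500 CPM. Among astrocyte genes the highest after Apoe were Sparcl1 (median 1962 CPM), Glul, the glutamine synthetase (1329 CPM), and Slc1a3, the glutamate transporter GLAST (1190 CPM), whereas Slc1a2, which encodes GLT-1, was at 169 CPM. The 12 interneuron genes summed to a median of 1120 CPM, led by Reln (327 CPM), Sst (193 CPM) and Gad1 (169 CPM). Pvalb, a marker of fast-spiking interneurons, was low, with a median of 5.38 CPM.

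Glial and vascular classes other than astrocytes were smaller. The 10 mature oligodendrocyte genes had a median sum of 1130 CPM, of which Mbp, the myelin basic protein, gave 464 CPM and Cnp 242 CPM. The 9 precursor genes found in the table summed to a similar 1070 CPM, led by Olig1 (252 CPM) and Pdgfra (239 CPM). The 12 microglia genes had a median sum of 272 CPM, with Csf1r, the receptor for the survival factor CSF1, at 79.9 CPM and Cx3cr1 at 17.8 CPM. The 10 endothelial and mural cell genes had a median sum of 433 CPM, led by the tight-junction gene Cldn5 (138 CPM). The 14 proliferation genes all had a mean of at least 1 CPM and summed to a median of 191 CPM, with Pcna at 44.8 and Mki67 at 35.6 CPM. These sums reflect both the genes chosen and their transcript lengths and are not proportions of cells.

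Most genes differed little between animals. Variation is given as the coefficient of variation (CV), the SD over the mean, after scaling by the trimmed mean of M-values (TMM). Over the 11885 genes with a mean of at least 1 CPM the median CV was 0.109, with 0.0499 at the 5th percentile and 0.346 at the 95th percentile. Counting alone would give a median CV of 0.0532, and after that share was taken out the median excess CV was 0.0896. A CV under 0.1 was found for 5218 genes (43.9%) and a CV over 0.5 for 162 genes (1.36%). The CV was lower at higher levels, since the 2880 genes between 1 and 10 CPM had a median CV of 0.226 and the 94 genes of at least 1000 CPM one of 0.0668. Without animal 1 the median CV was 0.111 and 166 genes had a CV over 0.5.

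**Figure D2:**
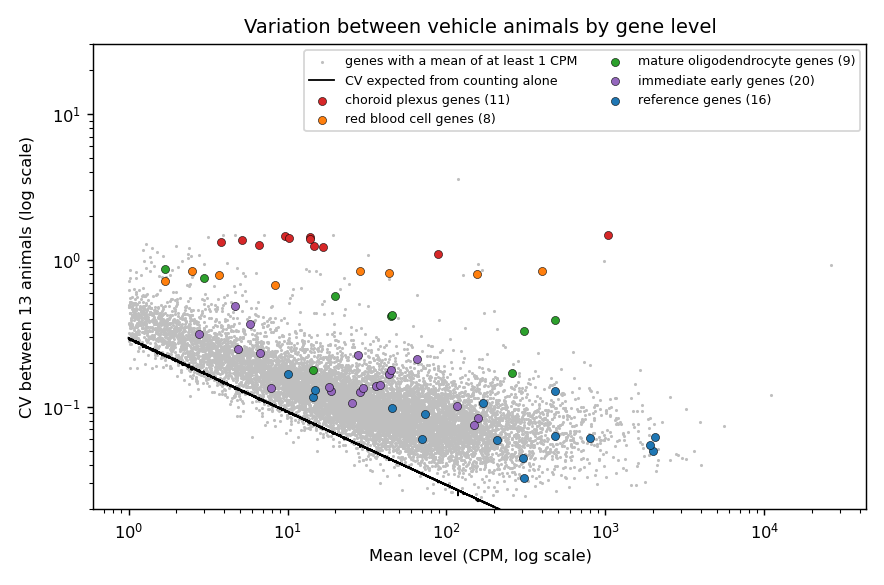
CV between the 13 vehicle animals (log scale) against mean level (CPM, log scale) for each of the 11885 genes of at least 1 CPM, with the CV that counting alone would give as a black line and members of 5 gene lists coloured. Choroid plexus genes lie between 1.1 and 1.48 and red blood cell genes between 0.683 and 0.849, whereas reference genes lie between 0.0326 and 0.167.

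The genes with the lowest excess CV were of moderate level, as is built into a measure that takes out a counting CV that is larger at lower levels. For 104 of the 9005 genes of at least 10 CPM the CV was no larger than counting alone would give. Of these, 101 lay between 10 and 100 CPM, 3 between 100 and 1000 CPM and 0 higher. The lowest CV among these 104 was that of an entry named Uba2, placed on chromosome 13 in rn6, with 79.2 CPM in the lowest animal, a median of 82.2 CPM and 86.2 CPM in the highest. Psme3, a proteasome activator, ranged from 101 to 113 CPM (CV 0.026), Fxr2, an RNA-binding protein, from 99.5 to 112 CPM (CV 0.0261) and Akap1, a mitochondrial anchoring protein, from 48.7 to 55 CPM (CV 0.027). The next 6 were C2cd5, Ubl4a, Kdm4a, Trappc11, Fam216a and Depdc5, with CVs from 0.0274 to 0.0335. For all 10 the CV-coded and C-coded animals overlapped, which follows largely from picking genes of low variation over all 13 animals.

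Genes often used to normalize PCR measurements are not set beside these 10, which were picked as the least variable in the same data. Over the 16 reference genes the median CV was 0.0628, against 0.0709 over all 2205 genes between 100 and 1000 CPM. One of them, Sdha, was lower in C-coded animals (log2 difference -0.14, adjusted p = 0.0406), a call that was lost when any single one of animals 1 to 5 or 10 to 13 was left out. Pgk1, a glycolytic enzyme, was the least variable, with 285 CPM in the lowest animal, a median of 308 CPM and 331 CPM in the highest (CV 0.0326). B2m had a CV of 0.0445, Eef1a1 0.0545, Gapdh 0.0612 and Actb 0.0624. Gusb (0.167) was the most variable of the list and is also the lowest of the list in level, with a median of 10 CPM. The CV of Actb was 0.314 once the excluded animal 7 was added.

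Against that background a few groups of genes varied strongly. Among the 36 genes with a CV over 0.5 and a mean of at least 10 CPM, 16 were highest in animal 14, 6 in animal 4 and 4 in animal 1. The 20 largest excess CVs belonged to LOC100911498 (Xist), to 10 genes that are choroid plexus markers or shared their high animals, to 3 ribosomal RNA genes or transcripts, to 3 globins, and to Ptgds, Robo3 and Fmod.

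Choroid plexus genes had a wide range. Ttr, the thyroid hormone carrier that choroid plexus epithelium secretes, was at 4490 CPM in animal 1, 3600 in animal 14, 2280 in animal 8 and 2150 in animal 4. It was between 180 and 369 CPM in animals 2, 3, 6 and 9 and between 0.759 and 9.04 CPM in animals 5 and 10 to 13. The high animals came from both code forms, and the levels fell into bands with wide gaps between them. The summed level of the 12 choroid plexus genes went from 25.5 CPM in animal 11 to 5020 CPM in animal 1, a 197-fold range. Of the 11 members with a mean of at least 1 CPM 10 were highest in animal 14, against 1063 of all 11885 genes at that level. The CVs of the 11 lay between 1.1 (Enpp2, an enzyme that makes lysophosphatidic acid) and 1.48 (Ttr).

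Other choroid plexus members had the same 4 high animals. Kl, the co-receptor of a phosphate-regulating hormone, was at 64 CPM in animal 14 and at 0.0839 CPM in animal 11. Cldn2, a pore-forming claudin, ranged from 0.0839 to 46.3 CPM, Folr1, a folate receptor, from 1.52 to 55.6 CPM, and Aqp1, the water channel of the epithelium, from 1.77 to 62.6 CPM. Sostdc1, a secreted antagonist, was at 55.7 CPM in animal 14 and at 0 in animal 12. Outside the list Mfrp (0 to 90.2 CPM), Kcne2 (3.51 to 35.7 CPM) and Tf, the iron carrier transferrin (6.8 to 110 CPM), were high in the same 4 animals, and Fmod (2.28 to 37.6 CPM) was high in these and in animal 3. Without animals 1, 4, 8 and 14 the number of genes with CV over 0.5 was 138. None of the 12 choroid plexus genes was called between code forms, against 5.86% of all genes tested, a share that is few genes in so short a list.

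Ependymal and meningeal genes varied less. The 6 ependymal genes found in the table, which serve motile cilia and the lining of the ventricles, summed to between 22 CPM (animal 9) and 63 CPM (animal 8). Of the 6, 5 were lowest in animal 9, against 1649 of all 11885 genes of at least 1 CPM. The ciliogenesis factor Foxj1 ranged from 8.72 to 31.4 CPM with a median of 14.6 CPM. The 10 meningeal and fibroblast genes summed to between 315 CPM (animal 10) and 816 CPM (animal 14). Of the 10, 7 were lowest in animal 10, against 1083 of the 11885 genes. Igf2, a growth factor made by meninges and choroid plexus, ranged from 74.6 to 379 CPM and was highest in animal 14. Ptgds, the prostaglandin D synthase of meninges and oligodendrocytes, was at 518 CPM in animal 3 and at 36.5 CPM in animal 8.

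Myelin genes were set apart by animals 3 and 12. Mbp was at 287 CPM in the lowest animal, 464 CPM at the median and 944 CPM in the highest, animal 3. Of the 9 mature oligodendrocyte genes with a mean of at least 1 CPM 8 were highest in animal 3, against 569 of all 11885 genes at that level. The summed level there was 2110 CPM against 1690 CPM in animal 12 and 768 CPM in the lowest, animal 5. The CVs ran from 0.169 for Cnp and 0.179 for Mog to 0.567 for Mobp, 0.753 for Mal and 0.875 for Opalin, and counting alone would give 0.169 for Mal and 0.224 for Opalin at their low levels. The sum of the precursor genes ranged only from 979 to 1140 CPM, with a CV of 0.0608 for Pdgfra. Among them Bcas1 (200 CPM in animal 12 and 152 CPM in animal 3, CV 0.203) and Enpp6 (4.53 and 4.55 CPM, CV 0.267) were also high in these animals. In animal 3 the sum of the immature neuron genes was also at its lowest, at 10400 CPM against a median of 12700 CPM. Of the 11 members 5 were lowest there, against 1524 of the 11885 genes.

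**Figure D3:**
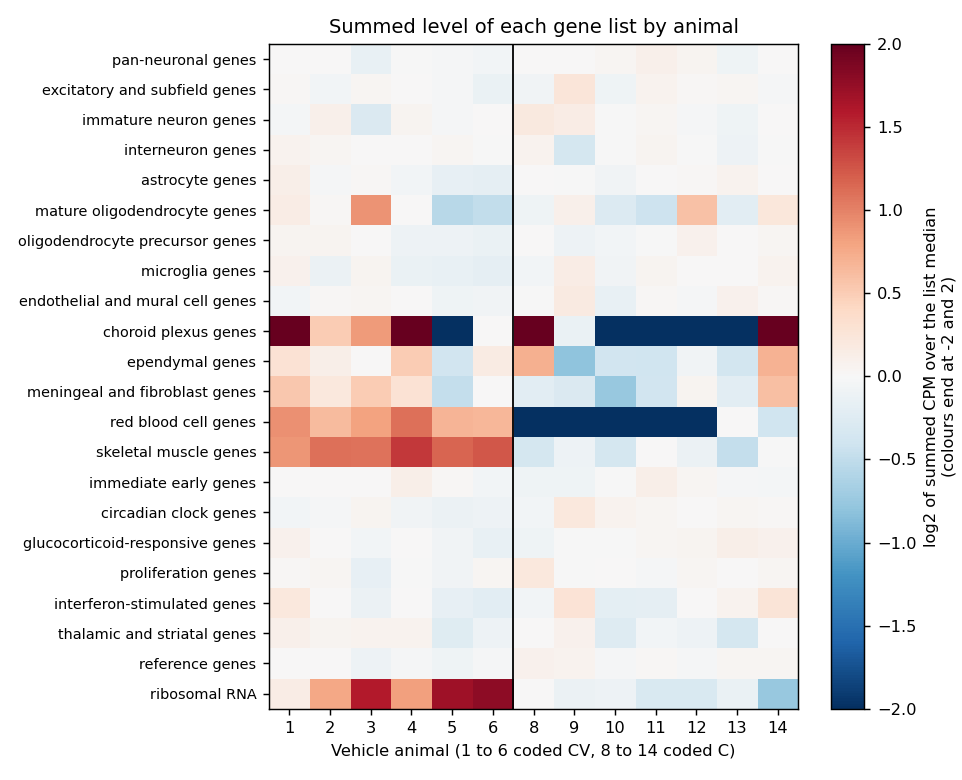
Summed level of 22 gene lists in each vehicle animal, as the log2 ratio to the median of that list over the 13 animals (red higher, blue lower, colours end at -2 and 2), with a line between CV-coded and C-coded animals. Choroid plexus genes are high in animals 1, 4, 8 and 14, mature oligodendrocyte genes in animals 3 and 12, and red blood cell, skeletal muscle and ribosomal RNA genes in the CV-coded animals.

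Animals 9 and 13 stood apart in the largest numbers of genes. Over the genes of at least 10 CPM, animal 9 lay at least 1.5 times above all other animals in 10 genes and at least 1.5 times below all others in 22, and animal 13 lay below all others in 13. No other animal had more than 5 genes in either direction. These genes were found after the values were seen. The genes high in animal 9 included Robo3, an axon guidance receptor, at 55.1 CPM against 21.1 CPM in the next animal and a median of 11.2 CPM. They also included Cbln1, a synapse organizer (49.3 against 32.8 CPM), and Ntf3, which encodes neurotrophin-3 (24.3 against 16 CPM).

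Genes low in animal 9 included Nr2f2, a transcription factor of interneurons derived from the caudal eminence, at 14 CPM against 24.4 CPM in the next animal, and Slit2, the guidance ligand of Robo receptors, at 46.1 against 76.1 CPM. In the same animal 6 of the 12 interneuron genes were at their lowest, among them Gad1 (130 CPM, median 169 CPM) and Gad2 (49.7 CPM, median 69.3 CPM), and Prox1 was at its lowest. Pvalb (8.32 CPM, median 5.38 CPM) and Vip (19.5 CPM, median 11.9 CPM) of the same list were at their highest there. Of all 11885 genes of at least 1 CPM 1649 were lowest and 1911 highest in animal 9, more than in any other animal. Genes low in animal 13 included Rprm (9.1 against 28.2 CPM in the next animal), Nxph3, a neurexin ligand (9.19 against 20.6 CPM), Oxtr, the oxytocin receptor (10.2 against 22.2 CPM), and Fezf2, a transcription factor of deep-layer cortical neurons (32.4 against 50.9 CPM). In animal 13 Prox1 (103 CPM) and Neurod1 (138 CPM) were at their highest. Tshz3 was at its highest in animal 9 (58.8 CPM) and at its lowest in animal 13 (7.39 CPM).

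Genes that respond quickly to the state of the animal varied to unlike degrees. Circadian clock genes, whose products form a daily transcription loop, had a median CV of 0.0968 over the 13 members found in the table. Per2 had a CV of 0.0685, with 43.6 CPM in the lowest animal, a median of 49.5 CPM and 54.9 CPM in the highest. Arntl, which encodes BMAL1, had a CV of 0.0737, and Per1 one of 0.0887. The more variable members were Dbp (CV 0.184, 48.6 to 91.1 CPM), Npas2 (0.227, 33.5 to 73 CPM) and Ciart (0.314, 3.98 to 10.1 CPM). Of the 13 members 8 were highest in animal 9, against 1911 of all 11885 genes of at least 1 CPM. The list summed to 1120 CPM there against 1010 CPM in the next animal. The 9 glucocorticoid-responsive genes with a mean of at least 1 CPM had a median CV of 0.248, from 0.0714 for Tsc22d3 and 0.0827 for Fkbp5 to 0.449 for Mt2A and 0.493 for Sult1a1, the last at a mean of 3.52 CPM.

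Immediate early genes, which neurons switch on within minutes of activity, all had a mean of at least 1 CPM, 20 of the 20 listed. Their CVs ran from 0.0751 for Nr4a3 to 0.486 for Npas4. Npas4, an activity-dependent transcription factor, was at 2.65 CPM in the lowest animal, 3.7 CPM at the median and 10.4 CPM in animal 4. Fos was at 3.53 CPM in the lowest, 5.52 CPM at the median and 11.5 CPM in animal 4, and Arc, an activity-regulated synaptic protein, at 38.1, 42.4 and 64.1 CPM. Animal 4 was the highest for 8 of the 20 genes, against 653 of all 11885 genes of at least 1 CPM. The more abundant members Jun (median 160 CPM, CV 0.0838) and Homer1 (113 CPM, CV 0.101) were steadier.

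Microglia genes had a median CV of 0.127, but Tmem119, a microglial membrane protein, ranged from 1.89 to 13.6 CPM (CV 0.529), with animal 1 the highest. The 7 interferon-stimulated genes with a mean of at least 1 CPM had a median CV of 0.292, with 0.482 for Rsad2 and 0.385 for Isg15. Mx2, an antiviral GTPase, had a CV of 0.815, with 16.6 CPM in animal 9, 12.9 CPM in animal 1 and no more than 5.29 CPM elsewhere. Proliferation genes had a median CV of 0.142, from 0.0594 (Mki67) to 0.281 (Birc5).

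**Figure D4:**
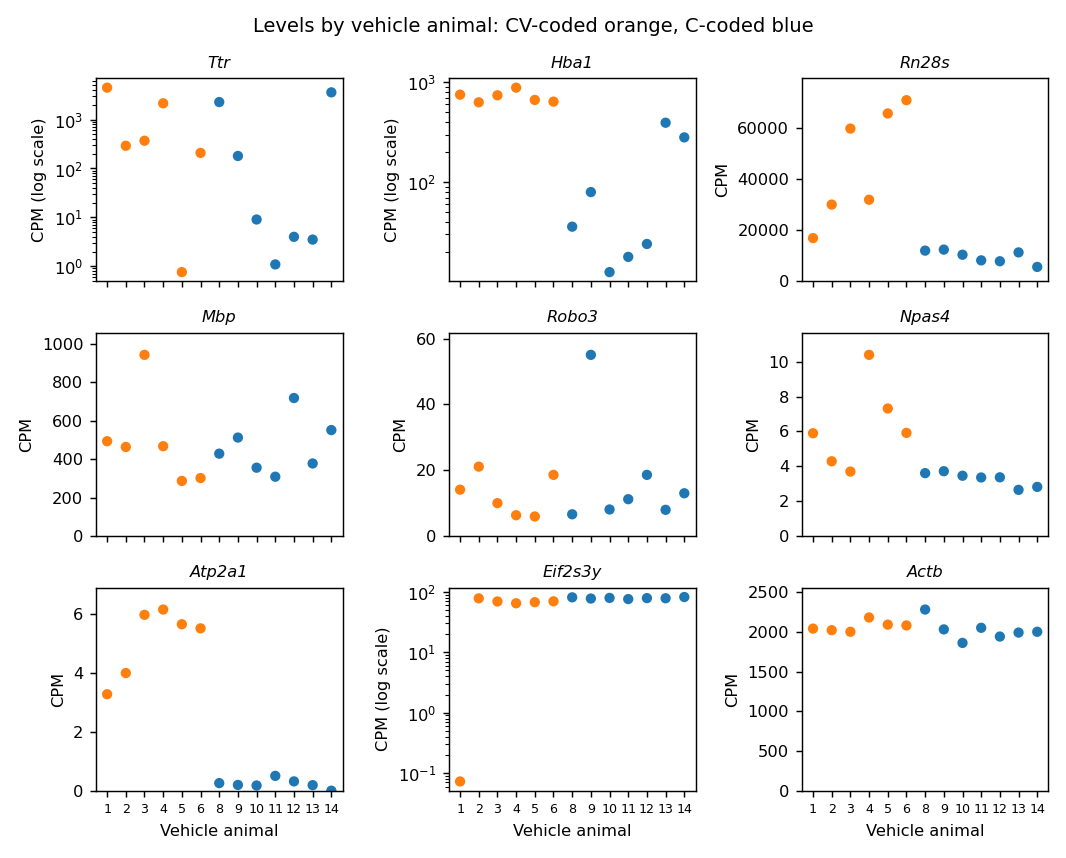
Level of 9 genes in each vehicle animal (CPM, with a log scale for Ttr, Hba1 and Eif2s3y), 1 point per animal, CV-coded in orange and C-coded in blue. Ttr splits the animals across both code forms, Hba1, Rn28s and Atp2a1 are higher in each CV-coded animal than in any C-coded animal, Robo3 peaks in animal 9, Eif2s3y is near 0 in animal 1, and Actb lies between 1864 and 2282 CPM.

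The form of the code is the only label that divides the vehicle animals, and it was tested with edgeR's quasi-likelihood test, comparing the 6 CV-coded with the 7 C-coded animals. With Benjamini-Hochberg adjustment and a limit of 0.05, 705 of 12026 genes differed (5.86% of the genes tested), of which 380 were higher (3.16%) and 325 lower (2.7%) in C-coded animals. With a difference of at least 25% of the lower group as well, 242 genes (2.01%) differed, 65 of them higher and 177 lower. The median absolute log2 difference over all genes was 0.0969. The CV-coded animals had 10251141 to 14488134 assigned reads and the C-coded animals 9499492 to 11911889. Without animal 1 the count at the first limit was 612. It was 446, 434, 370 and 419 without animals 2, 3, 4 and 5, and 34 when the excluded animal 7 was added to the C-coded animals. Of 41 called genes that were followed through the alternatives, 10 stayed called under every alternative run, namely Atp2a1, Ckm, Myh4, Acta1, Tnnt3, Rn45s, LOC257642, LOC310926, RGD1359290 and Npas4, and the other 31 lost their call at least with animal 7 added. Animal 7 itself lay above all 13 animals in 3015 of 11885 genes and below them all in 4574.

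The same split of codes gave differences in the treated animals, which the vehicle test had not used. Among PB animals 949 of 12078 genes (7.86%) differed between the 6 CP-coded and 8 P-coded pups, and among LEV animals 2068 of 12076 (17.1%) between the 6 CL-coded and 8 L-coded pups. Of the 705 vehicle genes 700 were tested in PB animals, where 615 had the same direction, against 7695 of all 11968 genes tested in both (64.3%). In LEV animals 634 of 705 had the same direction, against 7720 of 11970 (64.5%). The genes called in the same direction were 243 in PB animals (34.5% of the vehicle calls and 25.6% of the PB calls) and 309 in LEV animals (43.8% and 14.9%). In all 3 groups 180 genes were called in 1 direction, 73 higher and 107 lower in the second code form. Pups of different treatment groups may be littermates, so the groups are not wholly separate.

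**Figure D5:**
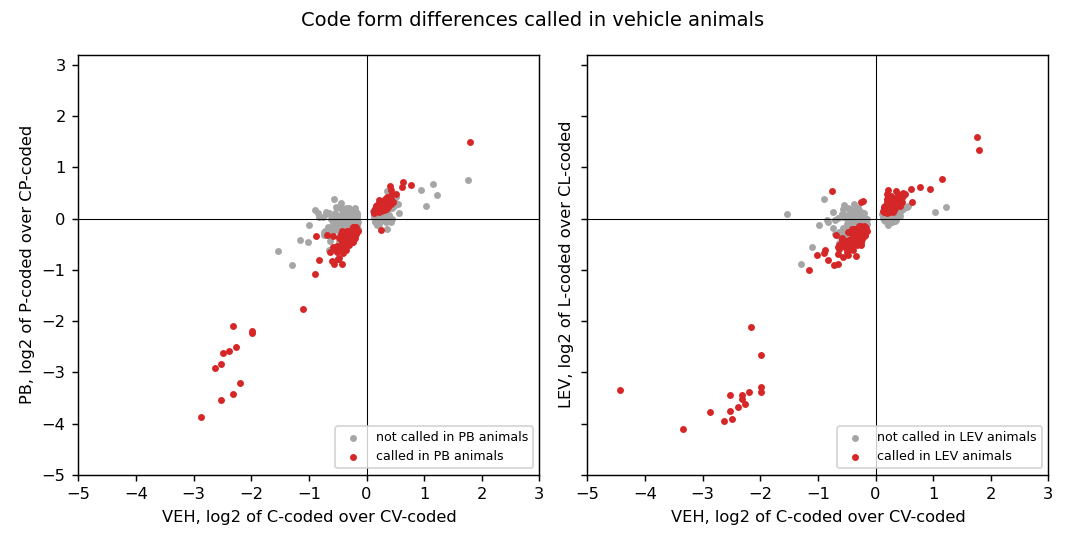
Log2 difference between code forms in PB (left) and LEV (right) animals against that in vehicle animals, for the genes called in vehicle animals (adjusted p under 0.05), red where also called in the second group. Ckm is left out because its C-coded vehicle animals held no read, and the points lie mostly to the lower left and upper right of the origin, 615 of 700 and 634 of 705 genes having the same direction.

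Ribosomal RNA differed strongly between code forms. Rn28s was at 16900 to 70800 CPM in CV-coded animals and at 5630 to 12400 CPM in C-coded animals, so the forms did not overlap, and it was lower in C-coded animals (log2 difference -2.31, SE 0.28, adjusted p = 0.000135). Rn45s, which stands for the precursor, was lower too (-2.53, SE 0.27, adjusted p = 3.89e-05), as was LOC257642, whose entries on chromosomes 14 and 6 include one that overlaps the ribosomal RNA locus (-2.87, SE 0.27, adjusted p = 1.83e-05). Rn18s ranged from 8527 to 12300 CPM in all 13 animals and did not pass the test (-0.1, SE 0.08, adjusted p = 0.526). It was called lower in the second code form of PB (-0.89, adjusted p = 0.0021) and LEV animals (-1.02, adjusted p = 0.000714). The Rn45s interval in rn6 spans those of Rn18s and Rn28s, so these entries can share reads and their split is uncertain. The share of counts in the 3 ribosomal RNA genes went from 1.42% to 8.29%. Leaving ribosomal RNA out of the totals and the test gave 696 genes in place of 705.

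Red blood cell genes followed the code form. Hba1, an alpha globin that RefSeq lists as Hba-a1, was at 631 to 884 CPM in animals 1 to 6, at 12.6 to 79.7 CPM in animals 8 to 12, and at 394 and 281 CPM in animals 13 and 14. It was lower in C-coded animals (log2 difference -2.63, SE 0.61, adjusted p = 0.017). Of the 8 red blood cell genes tested 7 were lower in C-coded animals, against 2.7% of all genes tested. The median log2 difference of the 8 was -2.35, against -0.002 over all genes. The 7 include the beta globins Hbb, Hbb-b1 and Hbb-bs, Alas2, which starts heme synthesis in red cells, and Slc4a1, their anion exchanger. Alas2, Slc4a1 and the entry named Hba-a1 had enough reads to be tested through the CV-coded animals, so for them a lower level was favoured in advance. Hba-a2 did not pass the test (0.43, SE 0.5, adjusted p = 0.682). The globin copies share reads, so their split is uncertain. With animal 7 added none of the 7 was called, the calls of Hba1 (adjusted p up to 0.124) and Hbb (up to 0.13) were also lost with a robust dispersion, and that of Alas2 (up to 0.223) when any of animals 1 to 6 or 8 to 12 was left out.

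Promoters of some of these genes are shown as a description, and whether they bear on the differences between animals was not tested. RefSeq windows, 250 bases before to 50 after the gene start in build GRCr8, were found for 7 of the 9 red blood cell genes in the table. TATAAA, the core letters of the TATA box, was searched on both strands. It stood in 5 of the 7 windows, each time on the gene strand and 28 to 30 bases before the start, and not in those of Hbb and Alas2. The 5 include Hba-a2, which was not called between code forms. Of 27457 RefSeq windows, 1 per gene, 14.3% held these letters anywhere on either strand and 1.52% on the gene strand 20 to 40 bases before the start. With fewer than 80% of the list matched, no share over the list is read. The windows below are Hba1 at chr10:15842531-15842830, Hbb-b1 at chr1:167643471-167643770 and Hbb-bs at chr1:167631581-167631880, all on the minus strand, and for the choroid plexus Aqp1 at chr4:85812534-85812833 on the plus strand. Capitals mark TATAAA.
Hba1: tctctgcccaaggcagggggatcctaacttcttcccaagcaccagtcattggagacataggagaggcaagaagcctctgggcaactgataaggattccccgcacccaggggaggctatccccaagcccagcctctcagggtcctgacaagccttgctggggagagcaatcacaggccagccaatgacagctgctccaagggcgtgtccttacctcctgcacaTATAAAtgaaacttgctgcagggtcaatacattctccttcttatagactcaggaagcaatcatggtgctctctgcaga
Hbb-b1: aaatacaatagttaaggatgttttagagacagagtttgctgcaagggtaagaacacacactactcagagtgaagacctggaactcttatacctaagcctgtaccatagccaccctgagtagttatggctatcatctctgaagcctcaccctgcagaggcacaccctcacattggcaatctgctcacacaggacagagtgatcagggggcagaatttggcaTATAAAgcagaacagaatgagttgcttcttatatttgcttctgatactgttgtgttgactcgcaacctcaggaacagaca
Hbb-bs: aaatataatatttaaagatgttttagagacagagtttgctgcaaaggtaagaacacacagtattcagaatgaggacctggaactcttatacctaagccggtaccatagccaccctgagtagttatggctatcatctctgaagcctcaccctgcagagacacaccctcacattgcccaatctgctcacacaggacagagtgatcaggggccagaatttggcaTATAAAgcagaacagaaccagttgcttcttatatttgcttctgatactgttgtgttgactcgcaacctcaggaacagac
Aqp1: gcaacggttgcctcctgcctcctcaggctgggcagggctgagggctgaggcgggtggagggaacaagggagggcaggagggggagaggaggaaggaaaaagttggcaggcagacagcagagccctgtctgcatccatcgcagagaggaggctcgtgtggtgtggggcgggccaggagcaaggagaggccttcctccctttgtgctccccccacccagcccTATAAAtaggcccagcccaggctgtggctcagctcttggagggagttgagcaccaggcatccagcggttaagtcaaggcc

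In these 4 windows the capitals stand 28, 30, 29 and 30 bases before the start. Among the 6 choroid plexus genes with a window Kcnj13 also held the letters, 46 bases before the start, whereas Ttr, the most variable member, did not. Of the 200 least variable genes of at least 10 CPM, picked in these same data, 171 had a window. TATAAA stood anywhere in 8 of these (4.68%) and 20 to 40 bases before the start in 0. Over the 7392 windows of all genes of at least 10 CPM the shares were 6.01% and 0.879%. At 0.879% few matches would fall in 171 windows, and a link between the motif and variation was not tested. Of the 11 reference genes with a window 2 held it there, Gapdh and Ppia, 26 and 31 bases before the start.

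Skeletal muscle genes also differed by code form, at low levels. Atp2a1, the calcium pump of fast muscle, was at 3.28 to 6.16 CPM in CV-coded animals and at no more than 0.504 CPM in C-coded animals (log2 difference -4.44, SE 0.32, adjusted p = 5.89e-07). Ckm, muscle creatine kinase, had 200 reads over the CV-coded animals and 0 over the C-coded animals, which is at least 67.7-fold lower when 3 reads over the group are taken as the limit that a count of 0 allows. Myh4, a fast myosin heavy chain, ranged from 2.91 to 6.28 CPM in CV-coded and from 0 to 0.923 CPM in C-coded animals. Of the 7 muscle genes tested 6 were lower in C-coded animals (against 2.7% of all genes tested), and Tnnc2 was not called (adjusted p = 0.0698). A gene enters the test with enough reads in as many animals as the smaller code form holds. Atp2a1, Ckm, Myh4 and Tnnt3 reached that through the CV-coded animals, so the count of 6 cannot be weighed against 2.7%. The call of Myh1 was lost when any of 10 single animals was left out, all but animals 2, 12 and 14 (adjusted p up to 0.831). Acta1, the most abundant, was at 18.9 CPM in the highest and 8.91 CPM in the lowest animal (-0.72, SE 0.1, adjusted p = 0.000294). The limit for Ckm covers counting error only. Of the 12 muscle genes 6 had a mean of at least 1 CPM. In LEV animals the 6 called genes were also lower in the second code form (adjusted p up to 0.0459). In PB animals Acta1 (-0.24, adjusted p = 0.338) and Myh1 (0.11, adjusted p = 0.804) were not called. Atp2a1, Ckm, Myh4 and Tnnt3 had too few reads to be tested there.

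Of the 20 immediate early genes 4 were lower in C-coded animals (against 2.7% of all genes tested) and 0 were higher (against 3.16%). Npas4 was lower by a log2 difference of -0.99 (SE 0.2, adjusted p = 0.00804), Junb by -0.34 (SE 0.08, adjusted p = 0.0241), Arc by -0.33 (SE 0.09, adjusted p = 0.0366) and Dusp1, a phosphatase that ends MAP kinase signalling, by -0.28 (SE 0.08, adjusted p = 0.0439). The forms overlapped for each of the 4. The call of Junb was lost without animal 3, 4 or 5, that of Arc without animal 3, 4, 5, 10, 12, 13 or 14, and that of Dusp1 without animal 1, 2, 3, 4, 5, 10, 11, 12 or 13, and all 3 were lost with animal 7 added. In PB animals Junb was also lower in the second form (-0.31, adjusted p = 0.00427), and it was not called in LEV animals (-0.21, adjusted p = 0.0743). Arc (0.02 in PB, -0.04 in LEV animals) and Dusp1 (-0.25 and -0.09) were called in neither, and Npas4 was not called in PB (-0.12, adjusted p = 0.77) or LEV animals (-0.13, adjusted p = 0.645).

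The cyclic AMP response element TGACGTCA, which reads the same on both strands and binds factors of the CREB family, was searched in the promoters of this list. Of 15 genes with a window 3 held it, Btg2 201, Dusp1 124 and Ier2 66 bases before the start, and with 15 of 20 genes matched no share over the list is read. Of all 27457 windows 1.91% held it. The windows of Dusp1 at chr10:17184603-17184902 and Ier2 at chr19:40399123-40399422, both on the plus strand, are shown with the element in capitals.
Dusp1: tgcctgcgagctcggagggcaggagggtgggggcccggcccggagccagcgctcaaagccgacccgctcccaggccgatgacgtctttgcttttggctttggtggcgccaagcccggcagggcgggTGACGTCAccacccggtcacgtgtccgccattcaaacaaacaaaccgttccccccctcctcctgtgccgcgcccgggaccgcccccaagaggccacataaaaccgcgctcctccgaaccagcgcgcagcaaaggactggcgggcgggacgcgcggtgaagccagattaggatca
Ier2: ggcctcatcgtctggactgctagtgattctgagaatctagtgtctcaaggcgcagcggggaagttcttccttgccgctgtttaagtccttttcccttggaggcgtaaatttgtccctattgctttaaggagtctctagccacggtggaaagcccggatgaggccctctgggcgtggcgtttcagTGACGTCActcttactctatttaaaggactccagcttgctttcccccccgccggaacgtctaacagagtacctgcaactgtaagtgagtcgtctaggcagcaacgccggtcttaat

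A match of letters is a description and not a measured site. In these 13 animals Dusp1 ranged from 14.7 to 21.9 CPM and Ier2, a growth-factor-induced nuclear protein, from 15.4 to 22.1 CPM, with CVs of 0.136 and 0.128. Npas4, whose CV was the largest of the list, held neither motif in its window.

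Some genes of neurons and glia were called as well. Of the 12 astrocyte genes 3 were called (against 5.86% of all genes tested), Slc1a3 (log2 difference 0.2, adjusted p = 0.00741) and Aqp4, the astrocyte water channel (0.22, adjusted p = 0.0366), higher in C-coded animals and Apoe (-0.24, adjusted p = 0.0182) lower. The call of Aqp4 was lost without animal 2, 4, 5, 6, 10, 11, 12 or 13. Snap25, a SNARE protein of synaptic vesicle release, was the 1 pan-neuronal gene called and was higher in C-coded animals, at 646 CPM in the lowest animal, 778 CPM at the median and 962 CPM in the highest (0.31, SE 0.06, adjusted p = 0.00388). Sst, the somatostatin precursor, was the 1 interneuron gene called and was lower (-0.52, SE 0.1, adjusted p = 0.00713), as was Sox11 among immature neuron genes (-0.39, SE 0.08, adjusted p = 0.00886). None of the mature oligodendrocyte, precursor, microglia, endothelial, ependymal, circadian clock or proliferation genes was called by edgeR's quasi-likelihood test. At 5.86% of all genes tested, few calls would fall in lists this short. Zbtb16, a glucocorticoid-responsive factor, was lower in C-coded animals (-0.59, SE 0.1, adjusted p = 0.00303) and lower in the second form of PB (adjusted p = 0.018) and LEV animals (adjusted p = 0.00269). Sst, Slc1a3 and Aqp4 were likewise called in the same direction in both PB and LEV animals. Apoe and Sox11 were called in the same direction in LEV animals only, and Snap25 in neither.

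Several of the smallest p-values lay outside the lists. Among the 10 smallest p-values were Atxn1, the ataxin-1 gene, at 61 to 81.7 CPM in CV-coded and 44.3 to 54.1 CPM in C-coded animals (log2 difference -0.68, SE 0.07, adjusted p = 3.89e-05), and Sh3bgrl, at 171 to 206 CPM against 242 to 282 CPM (0.42, SE 0.05, adjusted p = 3.89e-05). Srcin1, a regulator of Src kinase at synapses, and Plec, which encodes the linker protein plectin, were lower by -0.35 (SE 0.04) and -0.36 (SE 0.04). The forms did not overlap for these 4 genes, which follows closely from picking the smallest p-values. All 4 lost their call with animal 7 added (adjusted p = 0.0597, 0.769, 0.851 and 0.812). Atxn1 and Sh3bgrl were called in the same direction in both PB and LEV animals, Plec in LEV animals, and Srcin1 in neither. The largest rises in C-coded animals were those of RGD1359290 (log2 difference 1.8, SE 0.28, adjusted p = 0.00116), Bc1, a short neuronal RNA (1.76, SE 0.37, adjusted p = 0.0095), LOC310926 (1.23, SE 0.13, adjusted p = 3.89e-05), Gtf2a2 (1.16, SE 0.25, adjusted p = 0.0112) and Tsen34l1 (1.03, SE 0.24, adjusted p = 0.0177), each of them under 10 CPM on average.

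Variation between animals was only in part variation between code forms. Pooled within code forms the median CV was 0.101 against 0.109 over all animals, and 148 in place of 162 genes had a CV over 0.5. The CV of Rn28s was 0.603 within forms in place of 0.928, and the CV of Hba1 was 0.314 in place of 0.849. Of the 152 genes with a CV over 0.5 that were tested 22 were called between forms, against 5.86% of all genes tested. In vehicle animals most red blood cell, muscle and ribosomal RNA genes tested differed by code form (7 of 8, 6 of 7 and 2 of 3). Hba-a2, Tnnc2 and Rn18s were the exceptions, though Rn18s was called in PB and LEV animals. Several of the muscle and red blood cell genes entered the test only through the CV-coded animals. In PB animals Acta1 and Myh1 were not called, and the other muscle genes called in vehicle animals were not tested. The part of these classes in the other differences between code forms was not tested.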

How the data were processed

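Male-labelled pups were perfused, hippocampal RNA was extracted with Trizol, and NEBNext Ultra libraries were read as 150 bp pairs. Per the labels and methods, the authors aligned reads with STAR 2.7.3a to rn6 and quantified 15516 transcripts with Partek's expectation-maximization module. The deposited values are estimated counts (13.7% are not whole), which were rounded for edgeR. The authors' table of DESeq2 contrasts (means, fold changes, p-values) was not used. Counts were summed per symbol. CPM used column totals, and CVs used TMM scaling. Code forms were compared with edgeR 4.0.16 in R 4.3.3 (filterByExpr, TMM, quasi-likelihood F test), with DESeq2 1.42.0 as an alternative. On simulated data for the vehicle comparison (12057 genes), the fit found 97 of 100 genes changed 1.5-fold and 100 of 100 changed 2-fold. It also called 12 unchanged genes. That simulation drew each gene independently with 1 dispersion for all and changed abundant genes only, so it does not measure reliability on the real data. Named genes were the 20 highest, the 20 most and 10 least variable by excess CV (mean of at least 10 CPM, ties by CV), the 10 smallest p-values, the 5 largest rises and falls, and list members. Members and lists were chosen with earlier results of these data known. By accession 14744 transcripts matched the GRCr8 RefSeq table, used for names and promoters only. Some genes are not reported here.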

Additional observations from a re-analysis of the deposited data

Results flagged for a closer look

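Within the 6 CV-coded or 7 C-coded animals, 13 of 148 list sums and gene levels had 1 animal far from the rest by Dixon's test. For items picked without regard to their values, chance alone reaches this for about 1 in 20. That rate cannot be set beside this count, since many of the genes were named for their variation or small p-values. Some list sums also contain genes tested singly. Among CV-coded animals, animal 3 was far below in the sum of immature neuron genes (10400 CPM, next 12400), in Tubb2b (2480, next 3140), Tuba1b (2460, next 2760) and Stmn2 (1730, next 1970), and far above in the sum of mature oligodendrocyte genes (2110, next 1250). Animal 1 was far below in the sum of sex-linked genes (0.364 CPM, next 113) and far above in LOC100911498 (1530, next 0.293). Among C-coded animals, animal 9 was far above in circadian clock genes (1120 CPM, next 1010), Robo3 (55.1, next 18.6) and RGD1359290 (6.03, next 3.8). Animal 8 was far above in proliferation genes (220, next 197), animal 10 in Atxn1 (54.1, next 48.3) and animal 12 in Bc1 (11.4, next 4.87).

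The excluded animal 7, which the comparisons did not use, was above all 13 animals in 8 lists. Its sums were 11800 CPM for astrocyte genes (highest of the 13, 11400), 1420 for oligodendrocyte precursor genes (1140), 318 for microglia genes (302), 597 for endothelial and mural cell genes (488), 73.2 for ependymal genes (63), 1040 for meningeal and fibroblast genes (816), 160 for thalamic and striatal genes (130) and 10600 for reference genes (9430). It was below all 13 in 4 lists, with sums of 8940 CPM for pan-neuronal genes (lowest of the 13, 9360), 709 for immediate early genes (779), 160 for glucocorticoid-responsive genes (175) and 159 for proliferation genes (171). Over the 11885 genes of at least 1 CPM it lay above all 13 animals in 3015 and below them all in 4574. Eif2s3y was at 9.64 CPM there.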

How the results depend on the processing

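No paired analysis was possible because the code forms of one treatment share no animal numbers. The percent of counts in the 100 highest genes (19.6 to 20 without single animals) and the number of genes with a mean of at least 1 CPM (11872 to 11891) kept within the spread between animals, or within 1.5 times, under the alternatives run. The median CV over genes was 0.109, and it was 0.101 with a robust CV and within code forms, 0.0928 with a minimum of 10 CPM, 0.126 with no minimum, 0.15 with the excluded animal 7 and 0.104 to 0.111 without single animals. The genes with CV over 0.5 were 36 with a minimum of 10 CPM, 2201 with no minimum, 317 for transcripts not summed, 272 with animal 7 and 148 to 175 without single animals, against 162. The code form difference in vehicle animals was 242 genes with the fold limit, 1064 by DESeq2 (696 of the 705 among them), 34 with animal 7 and 370 to 966 without single animals, and 318 of the 705 calls were kept in all 13 of those fits. The code form difference in PB animals was 334 genes with the fold limit and 604 to 1002 without single animals (610 without animal 4, 604 without animal 11). The code form difference in LEV animals was 616 and 1526 to 2114. The cause of these shifts was not tested. Leaving out ribosomal RNA, or animals 1, 4, 8 and 14, was chosen after seeing the data. Levels per kilobase of transcript were not run, since the tables used here hold no transcript lengths. Between 1 and 10 CPM the median CV was 0.226, of which counting alone would give 0.145.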
